A study of Mus musculus with 17 samples.

Results

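Messenger RNA of 34 genes of glucose uptake, glycolysis, lactate metabolism and the hypoxia response was followed in 2 subsets of spleen myeloid cells during the growth of a subcutaneous tumour. The genes were given as a list of names, by role, and the list was chosen with earlier results of these data known. All 34 had at least 1 array feature that carries a single gene symbol, and they are 34 of the 19938 genes measured this way. Spleens of female BALB/c mice were pooled, CD11b+ cells were enriched on magnetic beads, and 2 subsets were sorted by surface staining. The monocytic gate (Mo) took Ly-6C(high)Ly-6G(low) cells. The polymorphonuclear gate (PMN) took the opposite, Ly-6C(low)Ly-6G(high). The tumour was Her-2/CT26, a mouse colon carcinoma line that carries the Her-2 antigen, and 100000 cells were injected under the skin. The study addressed what makes these myeloid-derived suppressor cells more suppressive as a tumour grows.

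Mo cells came from naive mice (3 arrays), from mice 3 weeks after injection (3 arrays) and from mice 6 weeks after injection (3 arrays). PMN cells came from the same 3 conditions, with 4 arrays from naive mice, 2 at 3 weeks and 2 at 6 weeks. Naive mice had no tumour and the labels give no sham injection. The labels call the cells of naive mice by the same subset names as those of tumour-bearing mice, and give neither the mice per pool, their age, nor whether replicates of a group are separate pools. The spread behind each p-value is thus that of the arrays at hand, and it may be technical.

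Glycolysis splits glucose into pyruvate in the cytosol. Cells that rely on it reduce pyruvate to lactate and export the lactate, while oxidised pyruvate enters the citrate cycle in mitochondria. Hypoxia-inducible factor (HIF) is a transcription factor whose oxygen-regulated subunit is destroyed when oxygen is plentiful, and many glycolytic genes are its targets. Neutrophils and their precursors are known for a strong use of glycolysis, and myeloid cells also stabilise HIF in inflamed tissue that is not short of oxygen.

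Levels are log2 intensities, and each change is a difference of group means on that scale with its standard error (SE). Adjusted p-values are from limma, fitted over all 17 arrays, with Benjamini-Hochberg adjustment across 19938 genes in a comparison, and a gene passed below 0.05. The arrays had median intensities of 95.3 to 114 (Mo) and 81.0 to 95.9 (PMN). At 6 weeks they were 95.3 to 104 in Mo arrays, against 108 to 114 in naive mice and 95.6 to 111 at 3 weeks. PMN arrays had 81.0 to 82.4 at 6 weeks, against 91.3 to 94.7 in naive mice and 93.2 to 95.9 at 3 weeks. The spread of PMN levels was wider at 6 weeks. Their 90th percentile was 8.98 to 9.01, against 8.20 to 8.32 in naive mice, and their 25th 5.64 to 5.65, against 5.87 to 5.93. Ccr2, a chemokine receptor of monocytes, lay between 12.06 and 12.45 in Mo arrays, against 6.07 to 6.78 in PMN arrays. Cxcr2, the chemokine receptor of neutrophils, lay between 5.46 and 7.25 in Mo arrays, against 12.44 to 12.70 in PMN arrays. Both receptors thus set the gates apart. Ly6g, the gene of the Ly-6G stain, lay between 5.70 and 8.95 in Mo arrays and between 10.21 and 12.97 in PMN arrays. Csf1r, another gene of monocytes, lay between 11.28 and 12.11 in Mo and between 9.68 and 10.47 in PMN arrays. The deposited table looked as if the subsets had been normalized apart, so Mo levels were not tested against PMN levels. Changes within a subset were compared between the subsets, since each is a difference between arrays of 1 subset. Fewer cells of one kind in a sorted sample and less RNA per cell cannot be told apart in these data.

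At 6 weeks against naive, 19 of the 34 genes rose and 5 fell in Mo cells. Over all genes tested in that comparison, 21.8% rose and 24.4% fell. In PMN cells 19 of the 34 rose and 4 fell at 6 weeks against naive, where 25.5% of all genes rose and 40.0% fell. Since the list was chosen with earlier results of these data known, these shares are a description and not a test. The median change of the 34 genes was 0.484 in Mo and 0.53 in PMN cells, beside medians over all genes of -0.094 and -0.182. With all 17 arrays quantile normalized together these medians of the 34 were 0.27 in Mo and 0.32 in PMN cells. The medians over all genes were then -0.023 and -0.053. In that setting 16 of the 34 rose and 4 fell in Mo, and 18 rose and 9 fell in PMN cells. Over all 19938 genes 2629 rose and 2615 fell in Mo, and 4287 and 5328 in PMN cells. With values under 6.97, a floor set from unexpressed receptor genes, raised to it, 16 rose and 1 fell in Mo, and 19 rose and 0 fell in PMN cells. Over all 19938 genes with values so raised, 3407 rose and 1169 fell in Mo, and 3975 and 1553 in PMN cells. Brighter genes moved up more than dim ones in both subsets. Among the 8853 genes whose mean lies above this floor, the 95th percentile of olfactory and vomeronasal receptor genes that these cells should not express, 39.4% rose in Mo and 50.7% in PMN cells. Of the 28 listed genes above that floor, 16 rose in Mo and 18 in PMN cells.

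A set of 15 genes rose in both subsets at 6 weeks. It held the glucose transporter Slc2a1, the hexokinases Hk2 and Hk3, the enzymes Pfkp, Aldoa, Tpi1, Pgk1, Pgam1 and Pkm, the lactate dehydrogenase Ldha, the kinase Pdk3, Hif1a, its hydroxylases Egln1 and Egln3, and the oxidase Ero1a. Pfkl, Ldhb, Slc16a1 and Ndrg1 rose in Mo and did not pass in PMN cells. Slc2a3 and Vegfa rose in PMN and did not pass in Mo cells. Pfkfb3 and Pfkfb4 fell in Mo and rose in PMN cells. Eno2 and Adm fell in both, Eno3 fell in Mo, and Pfkm and Aldoc fell in PMN cells. Hk1, Pdk1, Slc16a3, Bnip3, Ddit4 and P4ha1 passed in neither.

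**Figure D1:**
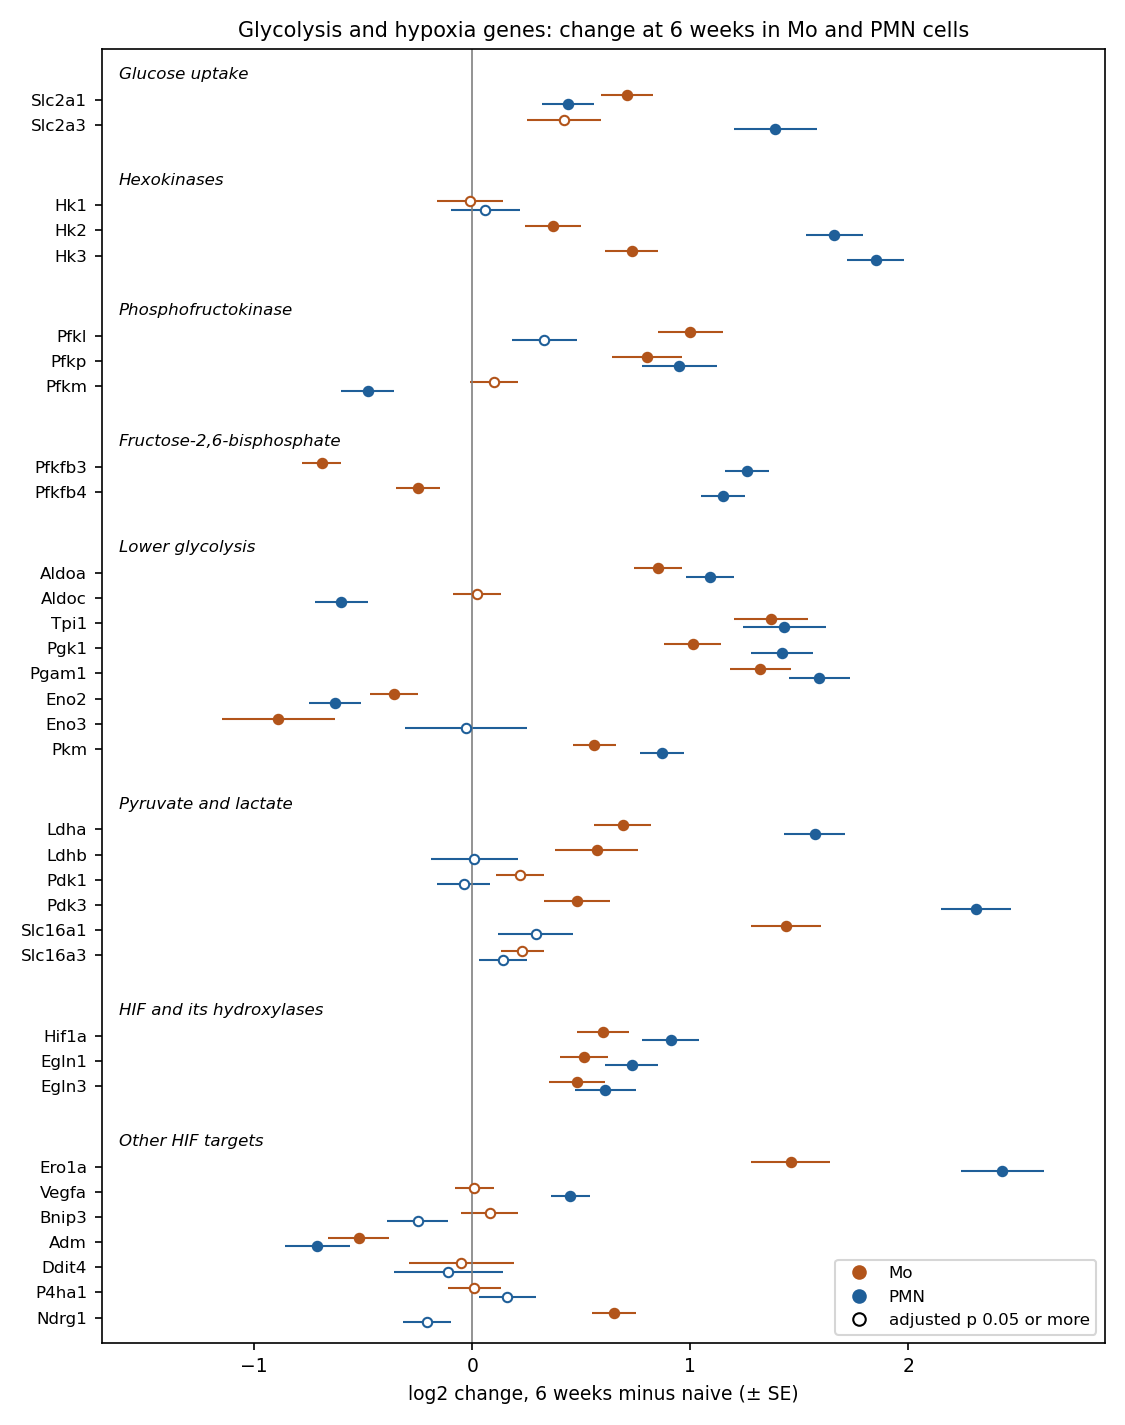
Change of each of the 34 genes at 6 weeks against naive (x axis, log2 difference of group means, bars ± SE from limma), with genes down the page by role, Mo in brown and PMN in blue. Filled points passed at an adjusted p below 0.05. Ero1a rose by 1.46 in Mo and 2.43 in PMN cells, and Pfkfb3 lies on opposite sides of 0.

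The promoter letters of 6 genes are shown because they cover the main patterns at 6 weeks: Ero1a, Pdk3, Pgk1 and Ldha rose in both subsets, Pfkfb3 moved in opposite directions, and Slc16a1 rose in Mo cells. The 250 bases before the annotated start were taken from RefSeq promoter windows on GRCm38.p6 and are printed 5′ to 3′ on the gene's strand. Capitals mark the core letters of the HIF response element, ACGTG or GCGTG, on the printed strand, or their reverse complements CACGT or CACGC. A palindromic CACGTG counts as 2 overlapping matches, and it is also the E-box that other factors bind. Ldha and Pfkfb3 have windows at 2 annotated starts each. The one with more matches is shown, and the other held 1 match for each gene in its 250 bases. For Pfkfb3 the window shown lies at an inner start within the gene. That of Ldha also lies inside its annotated span, 46842274 to 46855627.

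Ero1a, chr14:45318573-45318822, minus strand: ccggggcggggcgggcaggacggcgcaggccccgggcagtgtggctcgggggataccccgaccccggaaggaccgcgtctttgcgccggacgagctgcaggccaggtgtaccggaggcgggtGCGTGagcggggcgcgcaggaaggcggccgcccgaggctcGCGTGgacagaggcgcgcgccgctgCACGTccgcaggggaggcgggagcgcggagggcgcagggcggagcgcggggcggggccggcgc

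Pdk3, chrX:93832151-93832400, minus strand: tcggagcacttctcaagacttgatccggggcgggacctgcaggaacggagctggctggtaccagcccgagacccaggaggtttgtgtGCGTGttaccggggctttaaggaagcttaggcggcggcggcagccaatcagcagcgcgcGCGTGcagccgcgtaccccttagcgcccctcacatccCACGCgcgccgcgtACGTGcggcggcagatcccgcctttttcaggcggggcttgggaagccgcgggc

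Pgk1, chrX:106186850-106187099, plus strand: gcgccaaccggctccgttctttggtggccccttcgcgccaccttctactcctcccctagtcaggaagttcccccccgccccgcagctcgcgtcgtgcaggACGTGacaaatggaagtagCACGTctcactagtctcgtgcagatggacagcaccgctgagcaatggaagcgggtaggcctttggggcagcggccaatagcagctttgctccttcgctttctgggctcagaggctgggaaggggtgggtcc

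Ldha, chr7:46845554-46845803, plus strand: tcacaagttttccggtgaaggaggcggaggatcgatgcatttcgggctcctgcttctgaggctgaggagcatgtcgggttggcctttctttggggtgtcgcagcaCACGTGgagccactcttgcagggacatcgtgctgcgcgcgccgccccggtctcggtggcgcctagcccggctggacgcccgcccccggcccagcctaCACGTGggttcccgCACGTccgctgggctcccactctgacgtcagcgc

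Pfkfb3, chr2:11502091-11502340, minus strand: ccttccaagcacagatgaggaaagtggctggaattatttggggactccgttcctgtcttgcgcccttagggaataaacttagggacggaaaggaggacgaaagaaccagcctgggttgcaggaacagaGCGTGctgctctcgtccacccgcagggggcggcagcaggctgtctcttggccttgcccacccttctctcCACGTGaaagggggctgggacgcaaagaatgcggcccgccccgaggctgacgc

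Slc16a1, chr3:104638414-104638663, plus strand: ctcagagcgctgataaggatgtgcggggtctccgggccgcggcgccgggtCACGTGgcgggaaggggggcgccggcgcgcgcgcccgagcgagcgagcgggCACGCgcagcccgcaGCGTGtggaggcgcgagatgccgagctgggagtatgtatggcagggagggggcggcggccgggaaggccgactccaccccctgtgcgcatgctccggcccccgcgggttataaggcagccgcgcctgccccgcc

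In these 250 bases the script found 3 matches for Ero1a, 4 for Pdk3, 2 for Pgk1, 5 for Ldha, 3 for Pfkfb3 and 4 for Slc16a1. Windows of 300 bases were listed for 32 of the 34 genes, and 30 of these 32 (93.8%) held a match in at least 1 window. The share was 46.7% over all 27025 genes with windows and 55.3% over the 15562 of them measured here. Eno2 and Tpi1 had no match in their windows, and Tpi1 rose in both subsets while Eno2 fell in both. A match describes letters and says nothing of whether the factor was bound in these cells.

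Glucose uptake came first in the pathway. Slc2a1 encodes the widespread glucose transporter, and Slc2a3 a high-affinity transporter common in white blood cells. Slc2a1 lay at 8.26, 8.28 and 8.08 in naive Mo cells, 8.29, 8.62 and 8.76 at 3 weeks and 8.74, 9.07 and 8.94 at 6 weeks. In PMN cells Slc2a1 lay at 8.42, 8.43, 8.28 and 8.31 in naive mice, 8.37 and 8.52 at 3 weeks and 8.76 and 8.84 at 6 weeks. The 6-week arrays were above all naive arrays in both subsets. Slc2a1 rose by 0.71 ± 0.12 in Mo (1.64-fold, adjusted p = 0.000274) and by 0.44 ± 0.12 in PMN cells (adjusted p = 0.00583). The PMN rise of Slc2a1 turned to -0.28 when all 17 arrays were quantile normalized together, and its call was lost without PMN 6-week replicate 2 (0.40, adjusted p = 0.0549).

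Slc2a3 behaved otherwise. It lay at 6.75, 6.87 and 6.79 in naive Mo cells, 6.94, 6.81 and 6.87 at 3 weeks and 6.80, 7.84 and 7.03 at 6 weeks. In PMN cells Slc2a3 lay at 10.16, 10.08, 10.08 and 9.91 in naive mice, 9.86 and 9.93 at 3 weeks and 11.43 and 11.47 at 6 weeks. Both PMN 6-week arrays stood above all other PMN arrays, whereas the Mo groups overlapped and replicate 2 alone was high at 6 weeks. The same Mo array had the highest Ly6g among Mo arrays, 8.95 against 5.70 to 6.56 in the other 8. The change in Mo cells was 0.42 ± 0.17 (adjusted p = 0.0589), or 0.11 without that replicate, and Slc2a3 rose by 1.39 ± 0.19 in PMN cells (2.63-fold, adjusted p = 1.17e-05). The change in Mo minus that in PMN was -0.98 ± 0.25 (adjusted p = 0.013), a call that was lost without PMN 6-week replicate 2 and under joint quantile normalization.

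Hexokinases trap glucose in the cell as glucose 6-phosphate. Hk2, the inducible form, lay at 9.04, 9.15 and 9.21 in naive Mo cells, 9.25, 9.58 and 9.54 at 3 weeks and 9.30, 9.49 and 9.73 at 6 weeks. In PMN cells Hk2 lay at 7.70, 7.85, 7.43 and 7.64 in naive mice, 7.66 and 7.47 at 3 weeks and 9.35 and 9.28 at 6 weeks. Mo arrays of both tumour stages were slightly above the naive ones, and the PMN 6-week arrays were far above all other PMN arrays. The rise was 0.37 ± 0.13 in Mo (adjusted p = 0.0266) and 1.66 ± 0.13 in PMN cells (3.17-fold, adjusted p = 7.49e-08). The Mo rise of Hk2 did not pass in 7 of 17 alternatives, among them without Mo 6-week replicate 2 or 3 and without naive replicate 1 or 2. The changes differed between subsets by -1.30 ± 0.18 (adjusted p = 0.00014).

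Hk3, the hexokinase of white blood cells, lay at 7.71, 7.74 and 7.89 in naive Mo cells, 8.12, 8.51 and 8.50 at 3 weeks and 8.26, 8.52 and 8.75 at 6 weeks. In PMN cells Hk3 lay at 8.77, 8.70, 8.67 and 8.69 in naive mice, 8.58 and 8.53 at 3 weeks and 10.56 and 10.55 at 6 weeks. In Mo cells the arrays of both tumour stages lay above all naive arrays, and in PMN cells those of 6 weeks did. Hk3 rose by 0.73 ± 0.12 in Mo (1.66-fold, adjusted p = 0.000287) and by 1.85 ± 0.13 in PMN cells (3.6-fold, adjusted p = 1.88e-08). Its change in Mo minus PMN was -1.12 ± 0.17 (adjusted p = 0.00032).

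Hk1, the constitutive hexokinase, had 2 features that disagreed. The feature with the highest mean lay between 12.91 and 13.07 in all Mo arrays and changed at 6 weeks by -0.01 ± 0.15 in Mo (adjusted p = 0.954) and by 0.06 ± 0.16 in PMN cells (adjusted p = 0.726). Of the 18 features nearest to it in number, 17 belong to chromosome 14, whereas Hk1 lies on chromosome 10. It moved like 16 features annotated to both Hk1 and the ribosomal protein gene Rpl17, whose PMN changes ran from -0.10 to 0.15. The other feature, which lies among features of chromosome 10, had a PMN mean of 9.16 ± 0.12 at 6 weeks (SD, n = 2), against 7.82 ± 0.17 in naive mice (SD, n = 4), a change of 1.34 (adjusted p = 1.55e-07). In Mo cells it had a mean of 8.94 ± 0.08 at 6 weeks, against 8.60 ± 0.05 in naive mice (SD, n = 3 each), a change of 0.33 (adjusted p = 0.0226). By the first feature Hk1 passed in neither subset, and by the other it rose in both.

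**Figure D2:**
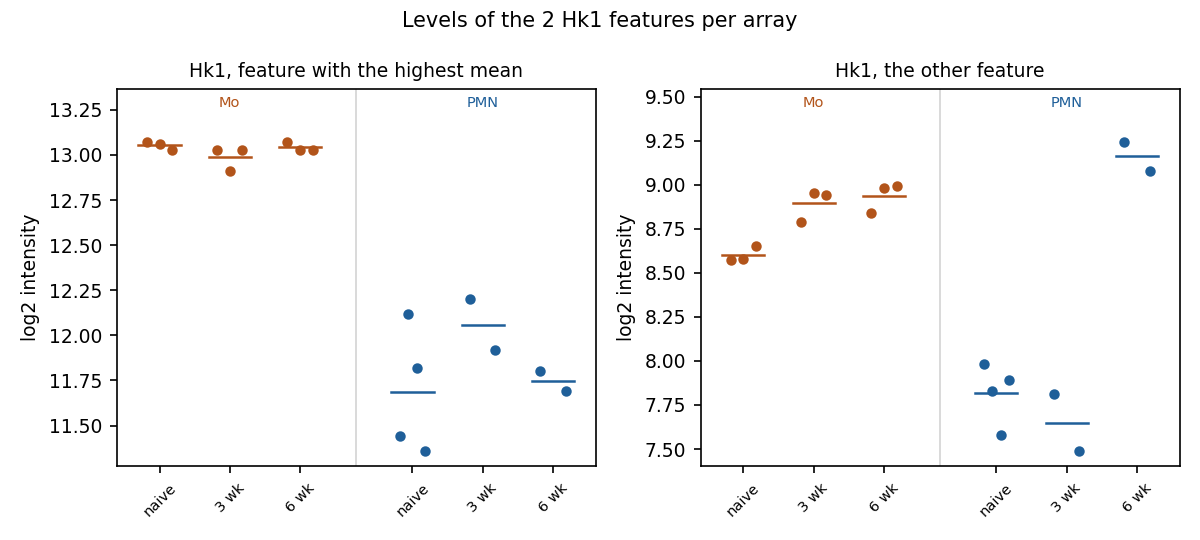
Log2 intensity (y axis) of the 2 Hk1 features in each of the 17 arrays, Mo in brown and PMN in blue, with a line at each group mean. The left panel, the feature with the highest mean, shows Mo arrays between 12.91 and 13.07 at all stages, and in the right panel the PMN 6-week arrays (mean 9.16) stand above the naive ones (mean 7.82).

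Phosphofructokinase makes the committed step of glycolysis and is built from liver, platelet and muscle subunits. Pfkl, the liver subunit, lay at 7.73, 7.63 and 7.86 in naive Mo cells, 7.91, 8.12 and 8.12 at 3 weeks and 8.33, 8.73 and 9.15 at 6 weeks. In PMN cells Pfkl lay at 6.73, 6.65, 6.70 and 6.84 in naive mice, 6.77 and 6.80 at 3 weeks and 7.13 and 7.0 at 6 weeks. All 6-week Mo arrays were above all others of that subset, and the PMN values lay near the floor. Pfkl rose by 1.00 ± 0.15 in Mo (2.00-fold, adjusted p = 0.000105) and changed by 0.33 ± 0.15 in PMN cells (adjusted p = 0.0668). The difference of 0.66 ± 0.21 passed (adjusted p = 0.039) but was lost in 11 of 22 alternatives, with 0.12 under joint quantile normalization.

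Pfkp, the platelet subunit, lay at 8.81, 8.96 and 8.99 in naive Mo cells, 8.98, 9.43 and 9.39 at 3 weeks and 9.44, 9.72 and 10.03 at 6 weeks. In PMN cells Pfkp lay at 7.46, 7.68, 7.31 and 7.53 in naive mice, 7.80 and 7.32 at 3 weeks and 8.29 and 8.61 at 6 weeks. Its 6-week arrays were above the naive arrays in both subsets. The rises were 0.80 ± 0.16 in Mo (adjusted p = 0.00146) and 0.95 ± 0.17 in PMN cells (adjusted p = 0.000235). Pfkm, the muscle subunit, lay between 7.33 and 7.62 in Mo arrays and changed there by 0.10 ± 0.11 (adjusted p = 0.475). In PMN cells Pfkm lay at 7.10, 6.89, 7.11 and 7.25 in naive mice, 6.78 and 7.23 at 3 weeks and 6.59 and 6.61 at 6 weeks, near or under the floor. It fell by 0.48 ± 0.12 there (adjusted p = 0.00252), a call lost after centring each array on its median (-0.28, adjusted p = 0.0726). With values under the floor raised to it, 0 of the listed genes fell in PMN cells, so the Pfkm call was lost there too. The unexpressed receptor genes had a median change of -0.362 in PMN cells. Whether the fall of Pfkm is apart from that general shift was not tested, so it does not show subunits moving in different directions.

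Pfkfb3 and Pfkfb4 encode bifunctional enzymes that set fructose 2,6-bisphosphate, the strongest activator of phosphofructokinase. They changed in opposite directions in the subsets. Pfkfb3 lay at 8.28, 8.32 and 8.35 in naive Mo cells, 8.30, 8.33 and 8.38 at 3 weeks and 7.55, 7.64 and 7.71 at 6 weeks. In PMN cells Pfkfb3 lay at 7.86, 7.95, 7.69 and 7.80 in naive mice, 8.01 and 7.75 at 3 weeks and 8.98 and 9.19 at 6 weeks. The 6-week arrays stood apart in both subsets, low in Mo and high in PMN cells, while naive and 3-week arrays overlapped. Pfkfb3 fell by 0.69 ± 0.09 in Mo (adjusted p = 6.16e-05) and rose by 1.26 ± 0.10 in PMN cells (2.39-fold, adjusted p = 7.15e-08). The difference between these changes, -1.94 ± 0.14 (adjusted p = 2.38e-07), was the largest among the 34 genes and passed in all 22 alternatives.

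Pfkfb4 lay at 8.72, 8.77 and 8.87 in naive Mo cells, 8.77, 9.16 and 9.13 at 3 weeks and 8.54, 8.58 and 8.49 at 6 weeks. In PMN cells Pfkfb4 lay at 9.06, 9.03, 8.98 and 8.87 in naive mice, 9.03 and 8.97 at 3 weeks and 10.10 and 10.17 at 6 weeks. The lowest Mo arrays were those of 6 weeks and the highest PMN arrays were those of 6 weeks. The PMN rise of 1.15 ± 0.10 (2.22-fold, adjusted p = 2.37e-07) passed in all 16 alternatives. The Mo fall of 0.25 ± 0.10 was close to the threshold (adjusted p = 0.0478) and was lost in 10 of 17, while the fall against 3 weeks, 0.48 ± 0.10 (adjusted p = 0.00382), passed in all 16. The difference between subsets of the change from naive was -1.40 ± 0.14 (adjusted p = 7.11e-06).

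**Figure D3:**
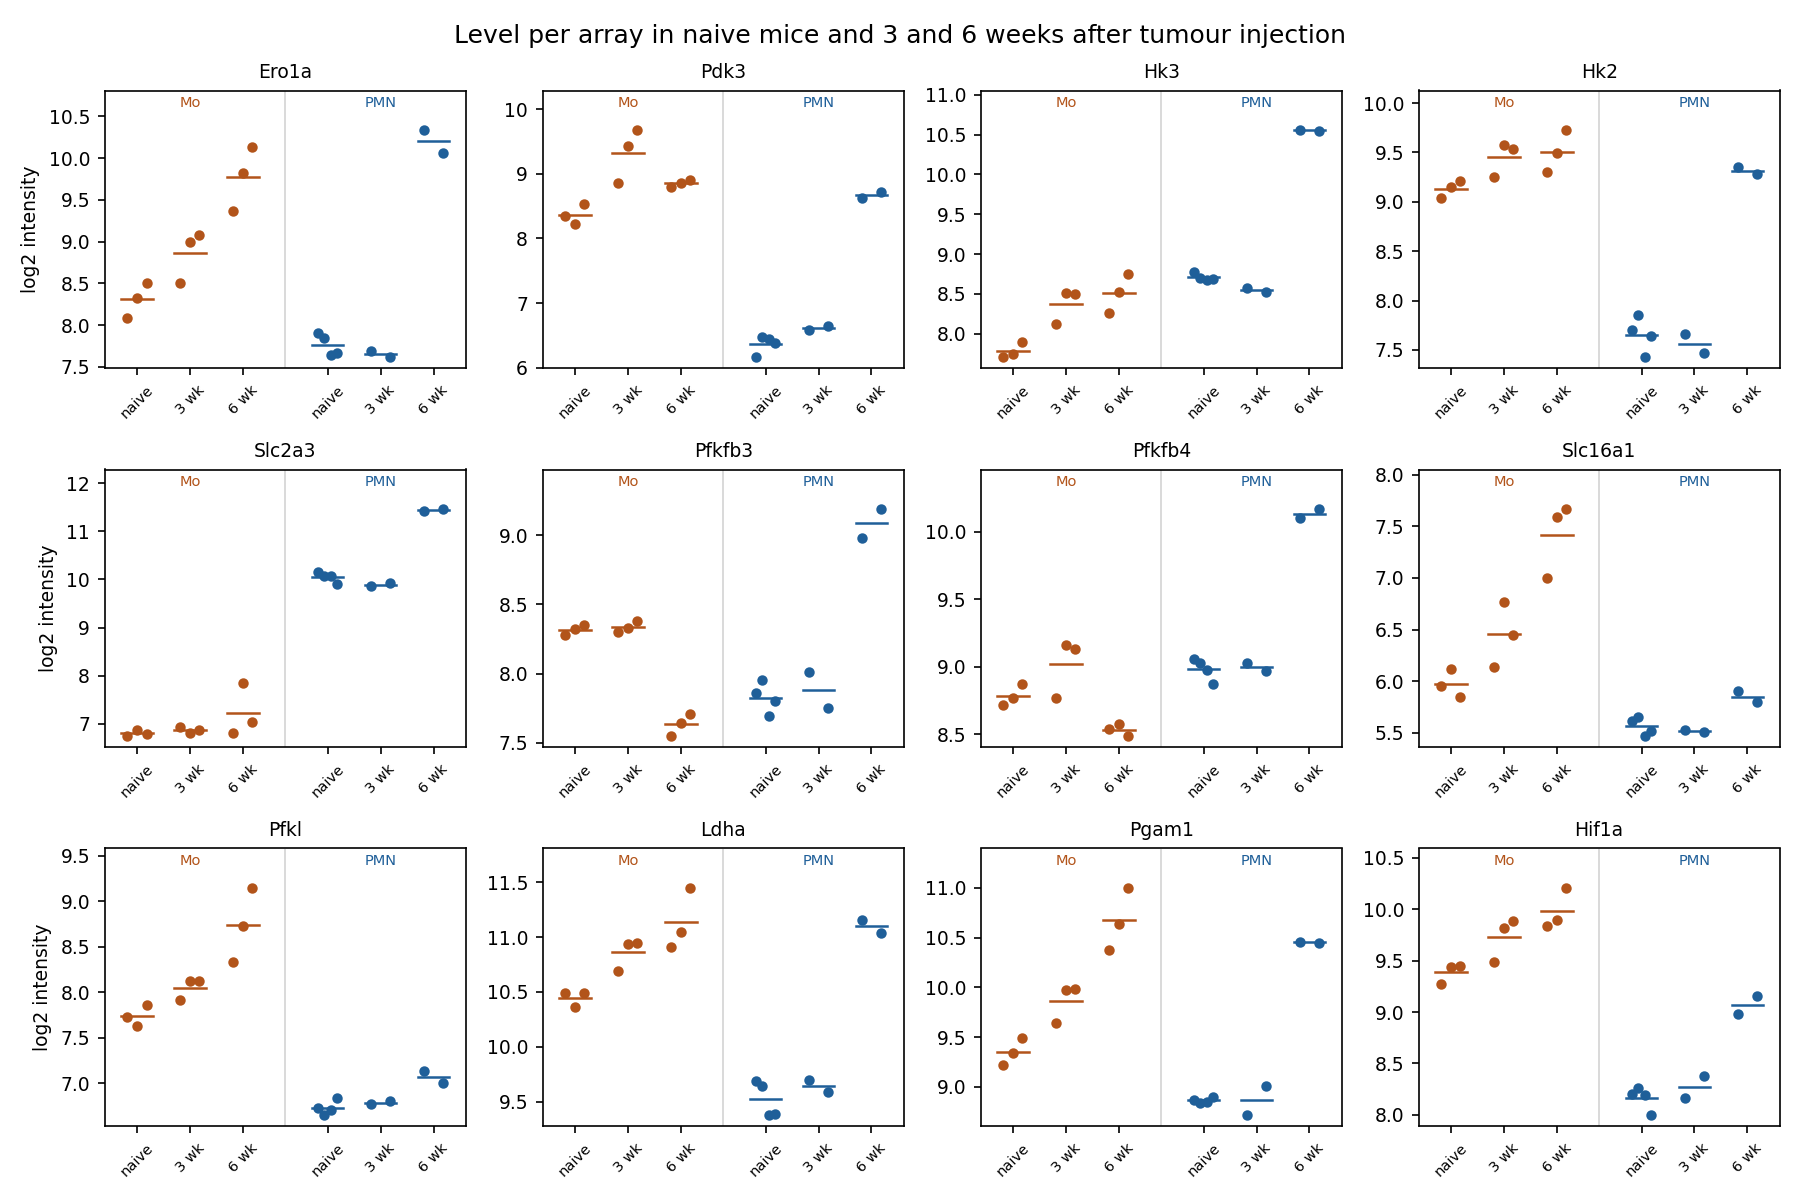
Log2 intensity (y axis) of 12 of the genes in each array, by stage (naive, 3 weeks, 6 weeks), Mo in brown and PMN in blue, with a line at each group mean. PMN arrays of naive mice and of 3 weeks lie together and those of 6 weeks apart, for example at 10.34 and 10.06 for Ero1a against 7.62 to 7.91 in the other 6, while Mo arrays of 3 weeks often lie between.

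Aldolase and triose phosphate isomerase turn the split sugar into glyceraldehyde 3-phosphate. Aldoa, the main aldolase of blood cells, lay at 10.85, 10.91 and 10.96 in naive Mo cells, 11.19, 11.54 and 11.61 at 3 weeks and 11.65, 11.74 and 11.89 at 6 weeks. In PMN cells Aldoa lay at 10.17, 10.19, 10.09 and 9.98 in naive mice, 9.95 and 10.04 at 3 weeks and 11.20 and 11.19 at 6 weeks. The 3 Mo stages did not overlap, naive arrays being lowest and 6-week arrays highest, and the PMN 6-week arrays stood apart. Aldoa rose by 0.85 ± 0.11 in Mo (1.81-fold, adjusted p = 2.2e-05) and by 1.09 ± 0.11 in PMN cells (2.12-fold, adjusted p = 7.99e-07). Aldoc, the brain form, lay between 7.03 and 7.25 in Mo arrays, with a change of 0.02 ± 0.11 (adjusted p = 0.913). In PMN cells Aldoc lay at 7.34, 6.88, 7.06 and 7.28 in naive mice, 6.97 and 7.15 at 3 weeks and 6.67 and 6.41 at 6 weeks, a fall of 0.60 ± 0.12 (adjusted p = 0.000641) that was lost once values under the floor were raised to it.

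Tpi1, the isomerase, lay at 8.89, 9.01 and 9.27 in naive Mo cells, 9.31, 10.05 and 9.89 at 3 weeks and 10.13, 10.42 and 10.72 at 6 weeks. In PMN cells Tpi1 lay at 7.60, 7.66, 7.63 and 7.46 in naive mice, 7.86 and 7.84 at 3 weeks and 9.22 and 8.82 at 6 weeks. The 3 Mo stages did not overlap. Tpi1 rose by 1.37 ± 0.17 in Mo (2.58-fold, adjusted p = 3.03e-05) and by 1.43 ± 0.19 in PMN cells (2.70-fold, adjusted p = 8.93e-06), and the difference of the changes was -0.07 ± 0.25 (adjusted p = 0.897).

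Pgk1 makes the first ATP of the pathway and Pgam1 moves the phosphate of its product. Pgk1 lay at 10.54, 10.53 and 10.69 in naive Mo cells, 10.96, 11.18 and 11.25 at 3 weeks and 11.49, 11.46 and 11.85 at 6 weeks. In PMN cells Pgk1 lay at 9.61, 9.75, 9.33 and 9.30 in naive mice, 9.70 and 9.54 at 3 weeks and 10.91 and 10.92 at 6 weeks. Pgk1 thus climbed by stage in Mo cells and stepped up between 3 and 6 weeks in PMN cells. The rises from naive were 1.01 ± 0.13 in Mo (2.01-fold, adjusted p = 3.56e-05) and 1.42 ± 0.14 in PMN cells (2.68-fold, adjusted p = 4.71e-07).

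Pgam1 lay at 9.22, 9.34 and 9.49 in naive Mo cells, 9.64, 9.97 and 9.98 at 3 weeks and 10.38, 10.64 and 11.0 at 6 weeks. In PMN cells Pgam1 lay at 8.87, 8.84, 8.85 and 8.90 in naive mice, 8.72 and 9.01 at 3 weeks and 10.46 and 10.45 at 6 weeks. Stages of Mo cells did not overlap, and the PMN 6-week arrays were far above the rest. Pgam1 rose by 1.32 ± 0.14 in Mo (2.50-fold, adjusted p = 3.22e-06) and by 1.59 ± 0.14 in PMN cells (3.01-fold, adjusted p = 2.18e-07).

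Enolases make phosphoenolpyruvate, and the forms measured here, Eno2 and Eno3, are best known from neurons and muscle. Eno3 lay at 8.16, 8.74 and 9.23 in naive Mo cells, 9.05, 9.12 and 9.16 at 3 weeks and 8.63, 7.52 and 7.32 at 6 weeks. Replicates 2 and 3 of the 6-week group were below all naive arrays, while replicate 1 was inside their range. The fall of 0.89 ± 0.26 in Mo cells (adjusted p = 0.0135) was lost without Mo 6-week replicate 2 (-0.74, adjusted p = 0.0663), without replicate 3 (-0.64, adjusted p = 0.0854) and without naive replicate 3. Against 3 weeks Eno3 fell by 1.29 ± 0.26 (adjusted p = 0.00366), with no overlap. PMN arrays held Eno3 between 6.57 and 6.81, under the floor.

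Eno2 lay under the floor in every array. Its values were 6.41, 6.32 and 6.24 in naive Mo cells, 6.17, 5.97 and 5.85 at 3 weeks and 6.13, 6.00 and 5.75 at 6 weeks. In PMN cells Eno2 lay at 6.54, 6.67, 6.77 and 6.69 in naive mice, 6.55 and 6.70 at 3 weeks and 5.97 and 6.11 at 6 weeks. It fell by 0.36 ± 0.11 in Mo (adjusted p = 0.0153) and by 0.63 ± 0.12 in PMN cells (adjusted p = 0.000292). The 1194 receptor genes, whose median lies at 5.27, had a median change of -0.325 in Mo and -0.362 in PMN cells, and 593 and 684 of them fell. Whether the falls of Eno2, and of the similarly dim Adm, are apart from that general shift was not tested.

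Pkm, the pyruvate kinase of most tissues, lay at 11.17, 11.19 and 11.23 in naive Mo cells, 11.39, 11.59 and 11.56 at 3 weeks and 11.64, 11.76 and 11.88 at 6 weeks. In PMN cells Pkm lay at 10.88, 10.87, 10.65 and 10.69 in naive mice, 10.85 and 10.65 at 3 weeks and 11.64 and 11.65 at 6 weeks. The 6-week arrays were the highest of their subset. The rises were 0.56 ± 0.10 in Mo (1.48-fold, adjusted p = 0.000403) and 0.87 ± 0.10 in PMN cells (1.83-fold, adjusted p = 2.96e-06).

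Ldha favours the reduction of pyruvate to lactate. It lay at 10.49, 10.36 and 10.49 in naive Mo cells, 10.69, 10.94 and 10.95 at 3 weeks and 10.91, 11.05 and 11.45 at 6 weeks. In PMN cells Ldha lay at 9.69, 9.64, 9.38 and 9.39 in naive mice, 9.70 and 9.59 at 3 weeks and 11.16 and 11.04 at 6 weeks. Mo arrays of both tumour stages were above the naive ones and overlapped each other. Ldha rose by 0.69 ± 0.13 in Mo (1.61-fold, adjusted p = 0.00085) and by 1.57 ± 0.14 in PMN cells (2.98-fold, adjusted p = 1.59e-07), a difference of -0.88 ± 0.19 (adjusted p = 0.00356). Ldhb, which favours the reverse reaction, ran from 7.85 to 8.68 in Mo cells at 6 weeks, against 7.40 to 7.88 in naive mice. That rise of 0.57 ± 0.19 (adjusted p = 0.021) was lost in 8 of 17 alternatives, including the Ldhb feature that lies on the gene's own chromosome. PMN arrays held Ldhb between 5.12 and 5.32.

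Pdk1 and Pdk3 encode kinases that switch off pyruvate dehydrogenase and so keep pyruvate out of the citrate cycle. Pdk3 lay at 8.34, 8.22 and 8.54 in naive Mo cells, 8.85, 9.43 and 9.68 at 3 weeks and 8.80, 8.86 and 8.90 at 6 weeks. In PMN cells Pdk3 lay at 6.17, 6.47, 6.44 and 6.39 in naive mice, 6.59 and 6.64 at 3 weeks and 8.63 and 8.72 at 6 weeks. In Mo cells Pdk3 was the one gene of the 34 whose called change was larger at 3 than at 6 weeks among those called at both. It rose by 0.48 ± 0.15 in Mo (adjusted p = 0.0198) and by 2.31 ± 0.16 in PMN cells at 6 weeks (adjusted p = 2.43e-08), a difference of -1.82 ± 0.22 (adjusted p = 4.07e-05). Naive and 3-week PMN arrays held Pdk3 under the floor, and with values raised to it the PMN rise was 1.71 (adjusted p = 1.78e-05) and the difference -1.22 (adjusted p = 0.00524). The Mo call was lost in 6 of 17 alternatives, with 0.10 under joint quantile normalization. Pdk1 lay between 5.85 and 6.72 in all arrays, under the floor, and passed in neither subset.

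Monocarboxylate transporters carry lactate across the membrane. Slc16a1 lay at 5.95, 6.12 and 5.85 in naive Mo cells, 6.14, 6.77 and 6.45 at 3 weeks and 7.0, 7.59 and 7.67 at 6 weeks. In PMN cells Slc16a1 lay at 5.61, 5.65, 5.47 and 5.52 in naive mice, 5.53 and 5.51 at 3 weeks and 5.90 and 5.80 at 6 weeks. Only the Mo 6-week arrays were above the floor. Slc16a1 rose by 1.44 ± 0.16 in Mo (adjusted p = 7.18e-06), or by 0.45 with values raised to the floor (adjusted p = 0.0236), and its change in PMN cells was 0.29 ± 0.17 (adjusted p = 0.143). The difference was 1.16 ± 0.23 (adjusted p = 0.00246), and 0.45 with the floor (adjusted p = 0.146). Slc16a3, the exporter of glycolytic cells, lay between 8.93 and 9.35 in Mo arrays, between 9.52 and 9.92 in PMN arrays, and passed in neither, with changes of 0.23 ± 0.10 (adjusted p = 0.0817) and 0.14 ± 0.11 (adjusted p = 0.278).

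Hif1a encodes the oxygen-regulated subunit of HIF, which is controlled largely at the protein level. It lay at 9.27, 9.44 and 9.45 in naive Mo cells, 9.49, 9.82 and 9.89 at 3 weeks and 9.84, 9.90 and 10.21 at 6 weeks. In PMN cells Hif1a lay at 8.20, 8.26, 8.19 and 8.0 in naive mice, 8.16 and 8.38 at 3 weeks and 8.98 and 9.16 at 6 weeks. The 6-week arrays were above the naive arrays in both subsets. Hif1a rose by 0.60 ± 0.12 in Mo (1.51-fold, adjusted p = 0.00186) and by 0.91 ± 0.13 in PMN cells (1.88-fold, adjusted p = 2.99e-05). Under joint quantile normalization the changes were 0.25 (adjusted p = 0.0576) and 0.16 (adjusted p = 0.209), so neither passed.

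Egln1 and Egln3 encode prolyl hydroxylases that mark HIF for destruction and are themselves HIF targets. Egln1 ran from 8.74 to 9.01 in Mo cells at 6 weeks, against 8.31 to 8.52 in naive mice, and rose by 0.51 ± 0.11 (adjusted p = 0.00301). In PMN cells Egln1 was 8.17 and 7.88 at 6 weeks, against 7.17 to 7.39 in naive mice, a rise of 0.73 ± 0.12 (adjusted p = 0.000113). The Mo rise of Egln1 was 0.13 under joint quantile normalization (adjusted p = 0.265). Egln3 rose by 0.48 ± 0.13 in Mo cells (adjusted p = 0.0105), with overlapping groups and a call lost without Mo 6-week replicate 2 or 3. All 3 Mo group means of Egln3 lay under the floor, and with values raised to it the change was 0.05 (adjusted p = 0.766). In PMN cells Egln3 rose by 0.61 ± 0.14 (adjusted p = 0.00187) without overlap. In PMN cells both hydroxylase genes thus rose beside Hif1a, and in Mo cells the one above the floor, Egln1, did.

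Ero1a, an oxidase that drives disulfide bond formation in the endoplasmic reticulum, rose in both subsets. It lay at 8.09, 8.33 and 8.51 in naive Mo cells, 8.51, 9.0 and 9.08 at 3 weeks and 9.37, 9.82 and 10.13 at 6 weeks. In PMN cells Ero1a lay at 7.91, 7.85, 7.64 and 7.67 in naive mice, 7.69 and 7.62 at 3 weeks and 10.34 and 10.06 at 6 weeks. No 6-week array overlapped an earlier one. Ero1a rose by 1.46 ± 0.18 in Mo (2.76-fold, adjusted p = 1.59e-05) and by 2.43 ± 0.19 in PMN cells (5.39-fold, adjusted p = 4.62e-08). The difference of -0.97 ± 0.26 (adjusted p = 0.0143) was lost without PMN 6-week replicate 1 (adjusted p = 0.0939).

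Vegfa, Ndrg1, Adm, Bnip3, Ddit4 and P4ha1 are further targets of HIF. Vegfa, the angiogenic growth factor, lay at 7.17, 7.22 and 7.17 in naive Mo cells, 7.17, 7.05 and 6.85 at 3 weeks and 7.20, 7.21 and 7.17 at 6 weeks. In PMN cells Vegfa lay at 7.81, 7.97, 7.85 and 7.92 in naive mice, 8.08 and 7.93 at 3 weeks and 8.39 and 8.30 at 6 weeks. Mo arrays of 6 weeks lay within the naive range and PMN arrays of 6 weeks above it. Its Mo change was 0.01 ± 0.09 (adjusted p = 0.965), and Vegfa rose by 0.45 ± 0.09 in PMN cells (1.37-fold, adjusted p = 0.000716), a direction that turned under joint quantile normalization (-0.10). The difference was -0.45 ± 0.13 (adjusted p = 0.0228).

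Ndrg1, a stress-responsive gene, lay at 9.14, 9.29 and 9.36 in naive Mo cells, 9.60, 9.78 and 9.90 at 3 weeks and 9.91, 9.97 and 9.85 at 6 weeks. In PMN cells Ndrg1 lay at 8.77, 8.66, 8.49 and 8.47 in naive mice, 8.47 and 8.52 at 3 weeks and 8.34 and 8.44 at 6 weeks. Tumour-stage Mo arrays were all above the naive ones, and PMN arrays of 6 weeks were just below them. Ndrg1 rose by 0.65 ± 0.10 in Mo (1.56-fold, adjusted p = 0.000194) and changed by -0.21 ± 0.11 in PMN cells (adjusted p = 0.0919), a difference of 0.86 ± 0.15 (adjusted p = 0.000712) that passed in all 22 alternatives.

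Adm encodes the vasodilator peptide adrenomedullin. It lay at 6.82, 6.51 and 6.53 in naive Mo cells, 6.54, 6.11 and 6.14 at 3 weeks and 6.28, 5.88 and 6.16 at 6 weeks. In PMN cells Adm lay at 6.47, 6.46, 6.56 and 6.75 in naive mice, 6.56 and 6.85 at 3 weeks and 5.73 and 5.96 at 6 weeks. All 17 values were under the floor, and Adm fell by 0.52 ± 0.14 in Mo (adjusted p = 0.00896) and by 0.71 ± 0.15 in PMN cells (adjusted p = 0.000766). Bnip3, a mitochondrial protein of mitophagy, lay at 7.74, 7.72, 8.07 and 7.72 in naive PMN cells, 7.84 and 8.22 at 3 weeks and 7.44 and 7.67 at 6 weeks, and its change from naive was -0.25 ± 0.14 (adjusted p = 0.106). In Mo arrays Bnip3 ran from 7.76 to 8.13. Ddit4, an inhibitor of the growth kinase mTOR, and P4ha1, a collagen prolyl hydroxylase, had changes between -0.11 and 0.16 in the subsets and did not pass.

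Directions that differed between the subsets were tested on the difference of the 6-week changes, Mo minus PMN. Of the 34 genes, 14 passed, 5 with the larger change in Mo and 9 with the larger change in PMN cells. Over all genes, 6.47% were higher and 11.0% lower in that contrast. Larger in Mo were Slc16a1, Ndrg1, Pfkl, Aldoc (0.61 ± 0.17, adjusted p = 0.017) and Pfkm (0.58 ± 0.16, adjusted p = 0.0205), the last pair through PMN falls of dim genes. Larger in PMN were Pfkfb3, Pdk3, Pfkfb4, Hk2, Hk3, Slc2a3, Ero1a, Ldha and Vegfa. Of these 14, Hk2, Hk3, Ldha, Ndrg1, Pdk3, Pfkfb3 and Pfkfb4 passed in all 22 alternatives. The enzymes from Aldoa to Pkm that rose in both subsets did not differ at the threshold, with differences from -0.42 ± 0.19 for Pgk1 (adjusted p = 0.16) to -0.07 for Tpi1.

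**Figure D4:**
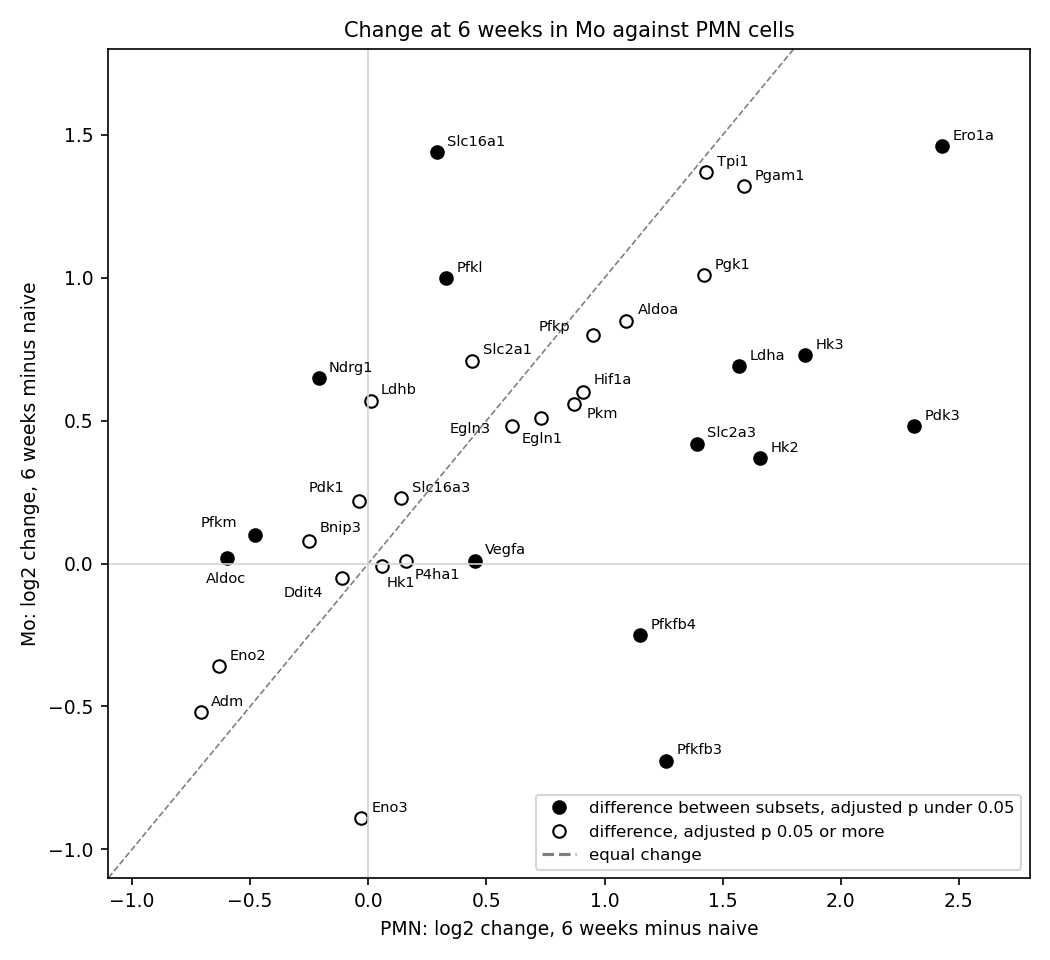
Change at 6 weeks against naive in Mo cells (y axis) against that in PMN cells (x axis), both as log2 differences, 1 point per gene. Filled points are the 14 genes whose changes differed between subsets at an adjusted p below 0.05, and the dashed line marks equal change. Pfkfb3 (-0.69 in Mo, 1.26 in PMN) and Pfkfb4 sit at the lower right, and Slc16a1 and Pfkl above the line.

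The 3-week arrays give the time course. In Mo cells 7 of the 34 genes rose and 0 fell at 3 weeks against naive, where 5.20% of all genes rose and 0.833% fell. They were Pdk3 (0.95 ± 0.15, 1.94-fold, adjusted p = 0.00878), Tpi1 (0.69 ± 0.17, adjusted p = 0.0351), Hk3 (0.60 ± 0.12, adjusted p = 0.0204), Aldoa, Pgk1, Pgam1 and Ndrg1. The median change of the 34 was 0.309, beside -0.053 over all genes, and 0.09 under joint quantile normalization. The calls of this stage moved with single arrays and settings. All 7 calls were lost when Mo arrays were fitted alone, and without Mo naive replicate 1 or 2 or Mo 3-week replicate 2 or 3, while 22 of the 34 passed without Mo 3-week replicate 1. Calls over all genes moved too, from 1036 higher and 166 lower to 2 and 0 with Mo fitted alone. They were 13 and 3 without Mo 3-week replicate 2 and 4531 and 4380 without replicate 1. Hif1a (0.34 ± 0.12, adjusted p = 0.0865), Ero1a (0.55 ± 0.18, adjusted p = 0.0633) and Ldha (0.42 ± 0.13, adjusted p = 0.0604) did not pass, although none of their 3-week arrays lay below the highest naive array.

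Between 3 and 6 weeks in Mo cells, 7 of the 34 genes rose and 3 fell, where 4.38% of all genes rose and 3.13% fell. These counts, SEs and p-values are from the main limma fit, which did not pair the arrays. The rises were those of Slc16a1 (0.97 ± 0.16, adjusted p = 0.000592), Ero1a (0.91 ± 0.18, adjusted p = 0.0023), Pgam1 (0.80 ± 0.14, adjusted p = 0.000686), Pfkl (0.69 ± 0.15, adjusted p = 0.00483), Tpi1 (0.67 ± 0.17), Egln3 (0.51 ± 0.13) and Pgk1 (0.47 ± 0.13). Eno3, Pfkfb3 and Pfkfb4 fell. Pfkfb3 fell by 0.71 ± 0.09 in this step (adjusted p = 7.9e-05). Pgam1, Ero1a, Pfkfb3 and Pfkfb4 passed in every alternative, and Hk2 changed by 0.05 ± 0.13 (adjusted p = 0.874). With replicate number as a block within each subset, 14 genes passed, the additional ones being Aldoa, Pdk3, Pfkp and Slc2a1. That block also ties naive Mo arrays and all PMN arrays by number, which were not taken as pairs. Over all genes 1390 rose and 984 fell with it, against 873 and 624 without it.

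In PMN cells at 3 weeks against naive, with 2 arrays at 3 weeks, 0 of the 34 genes passed, as did 0 of all genes in limma (0% higher and 0% lower), and the median change of the 34 was 0.024. At an unadjusted p below 0.05 the limma fit held 1 of the 34 and 374 of all genes, and 0 of the 34 passed in each of the 16 alternatives. At 6 against 3 weeks 19 rose and 5 fell, where 23.7% of all genes rose and 34.9% fell. With the floor 18 of the 34 rose and 0 fell, where 3665 of all genes rose and 1413 fell. Ero1a rose by 2.54 ± 0.21 (5.82-fold, adjusted p = 2.24e-07), Pdk3 by 2.06 ± 0.19 (adjusted p = 4.85e-07, or 1.71 with the floor, which its 3-week arrays lay under), Hk3 by 2.00 ± 0.15 (adjusted p = 5.89e-08) and Hk2 by 1.75 ± 0.15 (adjusted p = 3.27e-07). Adm, Eno2, Aldoc, Pfkm and Bnip3 fell, Bnip3 by 0.48 ± 0.16 (adjusted p = 0.0166). The Bnip3 feature used lies among features of chromosome 14, whereas Bnip3 lies on chromosome 7. Its dimmer feature among those of chromosome 7 had means of 6.78 at 6 weeks and 7.12 at 3 weeks. With own-chromosome features 4 of the 34 genes fell, and after centring each array on its median 2 did, where 6964 and 2306 of all genes fell. The subset difference of the 3-week changes passed for 0 of the 34 genes, where 0.00502% of all genes were higher and 0% lower. In limma 12 of the 34 had an unadjusted p below 0.05 there, as did 16.6% of all genes. The 0 passing genes became 9 without Mo 3-week replicate 1, where 2063 of all genes passed as higher and 1179 as lower. The stage comparisons of a subset share arrays, so their calls are not independent of each other.

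Other cell programmes moved with the 6-week groups, and their part in the changes of the 34 genes was not tested. All 10 proliferation markers rose in both subsets. Their summed intensity ran from 8098 to 15839 in Mo cells at 6 weeks, against 1198 to 2225 in naive mice, and from 5305 to 6425 in PMN cells at 6 weeks, against 1074 to 1099 in naive mice. In Mo cells 5 of 7 markers of immature granulocytes rose, with sums of 4960 to 13045 at 6 weeks, against 724 to 882 in naive mice, and 1 of the 7 still under the floor, against 5. Mo cells also had 6 of 9 neutrophil markers higher, with sums of 8161 to 15002 at 6 weeks, against 2104 to 2614 in naive mice, and 3 of the 9 under the floor, against 5. In PMN cells 5 of 7 markers of immature granulocytes rose too, with sums of 1290 to 1520 at 6 weeks, against 657 to 705 in naive mice, and 2 of the 7 under the floor, against 6. PMN cells had 7 of 9 neutrophil markers higher, with sums of 50581 to 54101 at 6 weeks, against 26290 to 30248 in naive mice. In PMN arrays all 7 B cell markers fell, with sums of 905 to 934 at 6 weeks, against 2612 to 2897 in naive mice. In Mo cells 5 of the 7 fell. Of 8 dendritic cell markers 6 fell in each subset, and 1 rose in Mo cells. Of 9 monocyte markers 4 rose and 3 fell in Mo, and 3 rose and 3 fell in PMN cells. Of the 9 neutrophil markers 1 fell in each subset. Over all genes 21.8% rose and 24.4% fell in Mo, and 25.5% rose and 40.0% fell in PMN cells. At 3 weeks in Mo cells the proliferation sum ran from 1547 to 2242, that of immature granulocytes from 819 to 1066 and that of neutrophil markers from 3050 to 4124.

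Neighbouring pathways give the setting. All 6 measured pentose phosphate genes, which make NADPH and ribose from glucose 6-phosphate, rose in both subsets at 6 weeks, led by transketolase, Tkt (1.15 ± 0.17 in Mo and 2.37 ± 0.18 in PMN, adjusted p = 9.73e-05 and 3.57e-08). Of 16 citrate cycle genes, 16 rose in Mo and 13 in PMN cells, with list medians of 0.719 and 0.765. Idh3a, a subunit of isocitrate dehydrogenase, rose by 1.42 ± 0.18 in Mo (adjusted p = 2.22e-05) and changed by -0.03 ± 0.19 in PMN cells (adjusted p = 0.895), a difference that passed (1.45 ± 0.26, adjusted p = 0.000886). Of 12 glycogen and gluconeogenesis genes, 6 rose and 1 fell in Mo, and 7 rose and 4 fell in PMN cells. Those PMN falls are 33.3% of the list, no more than the 40.0% of all genes that fell. Over all genes 21.8% rose and 24.4% fell in Mo, and 25.5% rose in PMN cells. These lists, too, were chosen with earlier results of these data known. The glycogen builders Gbe1 and Gys1 rose by 0.82 ± 0.18 and 1.02 ± 0.15 in Mo and by 2.06 ± 0.19 and 2.04 ± 0.16 in PMN cells, and both differences passed (adjusted p = 0.0034 and 0.00377).

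Of 22 further genes of glycolysis and pyruvate use, 6 rose and 0 fell in Mo, and 6 rose and 9 fell in PMN cells. These rises are 27.3% of the list in each subset and the PMN falls 40.9%, near the shares of all genes (21.8% and 25.5% higher, 40.0% lower). Mpc1, a subunit of the mitochondrial pyruvate carrier, rose by 1.04 ± 0.18 in Mo cells (adjusted p = 0.000552) and Dld, a subunit of pyruvate dehydrogenase, by 1.25 ± 0.17 in PMN cells (adjusted p = 1.49e-05). Of 33 further HIF pathway and target genes, 10 rose and 4 fell in Mo, and 13 rose and 10 fell in PMN cells, with medians of 0.001 and -0.071. That is 30.3% higher and 12.1% lower in Mo, and 39.4% higher and 30.3% lower in PMN cells, beside 24.4% of all genes lower in Mo. After centring each array on its median, 8 of the 22 and 15 of the 33 rose in PMN cells, and 0 and 4 fell. Over all 19938 genes 5916 rose and 3270 fell in PMN cells after centring. The transferrin receptor gene Tfrc rose by 2.26 ± 0.37 in Mo (adjusted p = 0.000264) and by 1.73 ± 0.39 in PMN cells (adjusted p = 0.00134). Hif1an, an asparagine hydroxylase that restrains HIF, changed by 0.16 ± 0.14 in Mo (adjusted p = 0.337) and rose by 1.49 ± 0.15 in PMN cells (adjusted p = 4.62e-07), and the difference passed (-1.33 ± 0.20, adjusted p = 0.000236). Flt1, a receptor of vascular growth factors, fell by 0.96 ± 0.10 in Mo cells (adjusted p = 2.37e-06). Gapdh, Gpi1 and Eno1, central glycolytic genes, had no feature of their own and were not analysed here.

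Of 8 regulators with a role in glycolytic gene control, 2 rose in Mo (25%), and 4 rose (50%) and 1 fell (12.5%) in PMN cells. The Mo share is near the 21.8% of all genes that rose. In PMN cells 25.5% of all genes rose and 40.0% fell. Myc, a transcription factor of growth and glycolytic genes, rose by 1.22 ± 0.18 in Mo cells (adjusted p = 0.000109) and its change differed from that in PMN cells by 1.66 ± 0.26 (adjusted p = 0.000336). Prkaa1, a catalytic subunit of the energy sensor AMPK, rose by 0.64 ± 0.15 in Mo (adjusted p = 0.00379) and by 1.40 ± 0.16 in PMN cells (adjusted p = 1.95e-06).

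**Figure D5:**
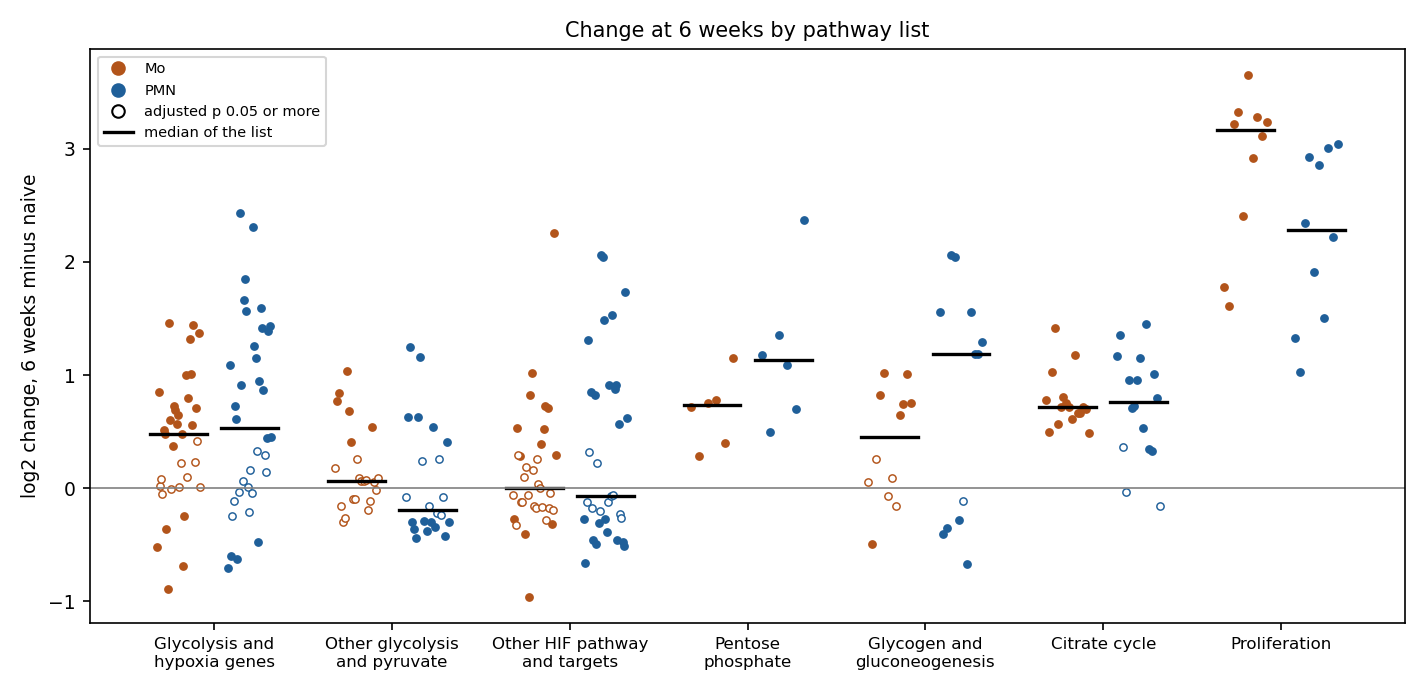
Change at 6 weeks against naive (y axis, log2 difference) of each measured gene of 7 lists, Mo in brown and PMN in blue, filled where the adjusted p was below 0.05, with a bar at the median of each list. The pentose phosphate and citrate cycle lists lie almost wholly above 0 in both subsets, while the further HIF genes spread around it with medians of 0.001 in Mo and -0.071 in PMN cells.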

How the data were processed

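Affymetrix Mouse Gene 1.0 ST arrays were summarised with RMA by the authors, per the submitters' processing notes, and the authors deposited them as intensities that are linear, not log2 (9.76 to 32095). Its version and settings are not given in the sources used here. A log2 scale had been assumed, so log2 was taken of the deposited intensities. Of 35557 features, 21789 carry 1 gene symbol in GEO's platform annotation, 1621 several and 12147 none, and only the first were used. For 999 genes with several features, the one with the highest mean was taken. Any pair of arrays of the same subset shared more distinct values than any Mo and PMN pair, as separate normalization could give, but no source states it. Mo and PMN levels were therefore not tested against each other.

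One mean per group was fitted over 17 arrays with limma 3.58.1 (lmFit, contrasts.fit, eBayes) in R 4.3.3, two-sided, with Benjamini-Hochberg adjustment across 19938 genes. The fit was tested on simulated data. The number of arrays, 2 to 4 a group, limits the precision. Summaries were made in Python 3.11.15 with pandas 2.3.3. Promoter windows are those of RefSeq on GRCm38.p6.

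Replicate numbers come from the labels. Deviations from the group means correlated at 0.628, 0.284 and 0.475 between same-numbered Mo arrays of 6 and 3 weeks, so those numbers were taken as pairs. The main fit did not use these pairs, and only the replicate block did. Mo arrays of 6 weeks and naive gave 0.46, -0.041 and 0.486, and other groups had at least 1 value under 0.1. Alternatives were other scalings, floors and filters on dim values, subsets fitted alone, array weights, a trended robust spread, other features of a gene, a replicate block and leaving out each array. Values per array are given for the genes with the largest called changes, up to 8 each way in Mo at 6 weeks and 4 each way elsewhere, and for Hif1a, Slc2a1, Hk2, Ldha, Pkm and Vegfa; up to 4 called genes are named per pathway list. The 34 genes and all lists were chosen with earlier results of these data known.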

Additional observations from a re-analysis of the deposited data

Results flagged for a closer look

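A single array stood away from its group for 2 of the 34 genes, the only groups of 4 or more arrays being the naive PMN ones. Bnip3 was 8.07 in naive PMN replicate 3, against 7.72 to 7.74 in the other 3. Its feature among those of chromosome 7 lay at 6.83, 7.13, 7.16 and 6.80 in naive PMN replicates 1 to 4. Ddit4 was 7.0 in naive PMN replicate 1, against 7.12 to 7.14 in the other 3. About 1 in 20 such groups is picked out by chance.

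The change at 6 weeks differed between Mo and PMN cells for 14 genes, by limma's test of Mo minus PMN. The change was lower in Mo by that contrast for 9 genes, with -1.94 for Pfkfb3, -1.40 for Pfkfb4, -1.30 for Hk2, -1.12 for Hk3 and -0.98 for Slc2a3. Pdk3, which is under the floor in naive PMN cells, differed by -1.82, Ero1a by -0.97, Ldha by -0.88 and Vegfa by -0.45. Slc16a1 differed by 1.16, Ndrg1 by 0.86, Pfkl by 0.66, Aldoc by 0.61 and Pfkm by 0.58.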

How the results depend on the processing

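Of 4710 values of the 34 genes under the alternatives, 4358 kept direction and side of the threshold, 175 lost a call, 165 gained one and 12 turned sign. Under joint quantile normalization P4ha1 turned to -0.36 in Mo at 6 weeks. In PMN cells the same setting gave -0.28 for Slc2a1, -0.46 for Hk1, -0.67 for Slc16a3 and -0.10 for Vegfa against naive, and -0.37 for Slc2a1, -0.75 for Slc16a3 and -0.24 for Vegfa against 3 weeks, and it turned the subset difference of Vegfa to 0.11. Hk1 turned to 0.33 in Mo at 6 weeks with its own-chromosome feature (chosen after seeing the data), and in PMN at 6 against 3 weeks to 1.51 with that feature and 0.60 with the mean of its features.

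The count of 7 genes in Mo at 3 weeks was 25 with array weights, 4 with the floor, 3 with joint quantile normalization, 17 with the replicate block (the 10 gained include Hif1a, Ero1a and Ldha), 0 with Mo fitted alone, and 0 to 22 when leaving out 1 array. Over all 19938 genes 1036 rose and 166 fell there in the main fit, and 6679 and 8498 with array weights. The floor gave 177 and 61 over all genes, joint quantile normalization 130 and 27, and the replicate block 3263 and 2039. The count of 10 in Mo at 6 against 3 weeks was 21 with array weights, 6 with the floor and 5 with Mo fitted alone. In that comparison 873 of all genes rose and 624 fell in the main fit, and 3544 and 4265 with array weights. The floor gave 541 and 443 over all genes, and Mo fitted alone 488 and 389. The 14 subset differences at 6 weeks were 23 with array weights and 9 to 15 when leaving out 1 array, the lowest without PMN 6-week replicate 2. Array weights gave 3405 higher and 3435 lower over all genes in that contrast, against 1290 and 2197 in the main fit. Without PMN 6-week replicate 2 these were 563 and 1535. The 0 differences at 3 weeks were 23 with array weights, 6 with the replicate block and 0 to 9 when leaving out 1 array. For the 3-week contrast array weights gave 4197 higher and 4364 lower over all genes, and the block 819 and 208. The replicate block gave 25 calls in Mo and 25 in PMN at 6 weeks, 24 in PMN at 6 against 3 weeks and 13 subset differences at 6 weeks. At 6 weeks against naive it called 4902 of all genes higher and 5949 lower in Mo, and 4937 and 7121 in PMN cells. The cause of these moves was not tested.

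Centring each array on its median added 0.12 to Mo and 0.20 to PMN changes at 6 weeks, so that 22 genes rose and 3 fell in each subset, and of all calls 69.5% were rises in Mo (47.2% before) and 64.4% in PMN (38.9% before). In PMN at 6 against 3 weeks 19 rose and 2 fell after centring, where 5419 of all genes rose and 2306 fell. Joint quantile normalization gave 18 rises and 9 falls in PMN at 6 weeks, where 4287 of all genes rose and 5328 fell. Slc16a1 and Pdk1 were too dim for the filter on dim genes, and values under the floor of 6.97 carry little measure of change.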

Other observations

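Markers of blood cells outside the gates and of handling also moved with stage. In Mo cells all 7 T and NK cell markers fell at 6 weeks, with summed intensities of 381 to 474, against 803 to 1193 in naive mice. Immediate early genes, which respond within minutes to handling, fell in 6 of 10 cases in Mo and 7 of 10 in PMN cells, where 24.4% and 40.0% of all genes fell. Sums of these genes were 6099 to 10285 in Mo cells at 6 weeks, against 11388 to 17238 in naive mice, and 8350 to 8809 in PMN cells at 6 weeks, against 14123 to 21147 in naive mice. Mpo, the peroxidase of immature granulocytes, lay at 10.17, 11.06 and 11.69 in Mo cells at 6 weeks, against 6.22, 6.37 and 6.76 in naive mice. The proliferation gene Mki67 lay at 10.40, 11.28 and 11.47 in Mo cells at 6 weeks, against 6.87, 7.80 and 8.65 in naive mice.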
